A study of Caenorhabditis elegans with 22 samples.

Results

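The genes described here are 9 markers of the *C. elegans* intestine, chosen by name for their roles in gut identity and digestion and matched to their WormBase identifiers. They are 9 of the 20392 genes in the count tables, and the rule that names them uses no measured value. The choice was made with earlier results of these data known. The members are the regulators *elt-2* (WBGene00001250, chromosome X) and *elt-7* (WBGene00015981, chromosome V), the digestive enzymes *ges-1* (WBGene00001578, V), *asp-1* (WBGene00000214, V), *cpr-1* (WBGene00000781, V) and *pho-1* (WBGene00004020, II), the apical cytoskeleton genes *ifb-2* (WBGene00002054, II) and *act-5* (WBGene00000067, III), and the transporter *pept-1* (WBGene00003877, X). All 9 were found in every table. Levels are given in CPM, the count of a gene scaled to the total count of its library. Levels of different genes are compared only in RPKM, which is CPM divided by the exonic length in kilobases.

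The intestine of the worm is an epithelial tube of large cells that secrete digestive enzymes into the lumen, take up nutrients and store fat and yolk. GATA-type transcription factors set up and maintain its fate in the embryo and the larva, and ELT-2 and ELT-7 act there through GATA sites in front of most gut genes. The apical face of these cells carries a brush border of microvilli, built on actin and anchored in a dense web of intermediate filaments. Neither seam cells nor body wall muscle cells are known as sites of digestive enzyme synthesis.

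The study asked how loss of histone H3 lysine 9 methylation alters transcription in differentiated cells, and sequenced RNA of cells sorted from dissociated L3 larvae. MET-2 and SET-25 are the histone methyltransferases concerned, and the mutants carried *met-2(n4256)*, *set-25(n5021)* or both alleles, all on chromosome III. There were 22 libraries in 11 groups, with 2 biological replicates in each. Body wall muscle cells came from larvae of N2 (Bristol, the wild type or WT), of each single mutant and of the double mutant *met-2 set-25*, all with the red fluorescent transgene *gwIs4* under the *myo-3* promoter, and N2 cells negative for that colour form the non-muscle group. Seam cells, lateral cells of the epidermis, came from the same 4 genotypes in strains with GFP from the SCM seam promoter and AJM-1::mCherry, and cells positive for both colours were collected. AJM-1 is a junction protein of epithelia, the intestine included. How well the sort separated seam cells from gut cells was not tested. The last 2 groups are muscle of a strain in which endogenous MET-2 carries a degron tag and the auxin receptor TIR1 is driven everywhere by the *eft-3* promoter, grown with or without auxin from the early L1 stage on.

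Seam cell libraries held 18114744 to 24752059 counts, and muscle and non-muscle libraries of the 4 genotypes held 12096374 to 16416460. The degron muscle libraries held 11883702 to 24355743 counts. The labels of the 8 muscle and 8 seam cell libraries went with their marker lists. The summed level of 10 body wall muscle genes was 108867 to 138497 CPM in muscle against 2829 to 4791 in seam cells, and the sum of 9 seam genes was 2361 to 7097 CPM in seam cells against 59.7 to 84.5 in muscle. The N2 non-muscle libraries are described as body wall muscle in the tissue field of their labels but as non-muscle in their titles, and their muscle sum was 16084 and 19641 CPM. The alleles do not abolish the transcripts, and in seam cells *met-2* was at 14.03 to 22.1 CPM in the genotypes with *met-2(n4256)* against 27.3 to 39.3 in the other genotypes. *set-25* was at 17.1 to 21.3 CPM in seam cells with *set-25(n5021)* against 30.5 to 40.6 in those without it. In muscle the ranges of these genes overlapped between mutant and WT alleles, and since the tables hold a single value per gene, this does not test the deletions. Replicates differed by more than counting noise, with 17.9% to 50.3% of genes beyond 3 Poisson SD of the difference in each group.

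Intestine genes were at low to moderate levels in the sorted cells, and in seam cells their levels differed between genotypes. The summed level of the 8 members other than *act-5* was 110 and 180 CPM in N2 seam cells, 49.4 and 122 CPM in *met-2*, 15.5 and 26.4 CPM in *set-25*, and 394 and 605 CPM in *met-2 set-25*. The *set-25* libraries lay lowest and the double mutant libraries highest, with no overlap with any other genotype. In RPKM, *asp-1* was the most abundant member in N2 seam cells (63.1 RPKM), followed by *act-5* (39.0), *cpr-1* (30.0) and *ifb-2* (9.06). *act-5* lay above *cpr-1* in each N2 replicate (44.5 against 35.2 and 33.6 against 24.8 RPKM), an order that rests on 2 libraries. *pho-1* (1.68 RPKM) and *pept-1* (1.33) came next, in that order in each replicate, and *ges-1* (0.530), *elt-7* (0.524) and *elt-2* (0.205) were lowest. The order of *ges-1* and *elt-7* is not set, with 0.429 and 0.721 RPKM in replicate 1 but 0.632 and 0.327 in replicate 2. In *set-25* seam cells *act-5* was the most abundant (21.99 RPKM) and *asp-1* followed at 8.47, whereas in the double mutant *asp-1* reached 190.5 RPKM. Because these are bulk libraries, fewer intestine cells in a sort and less intestine RNA per cell cannot be told apart.

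**Figure D1:**
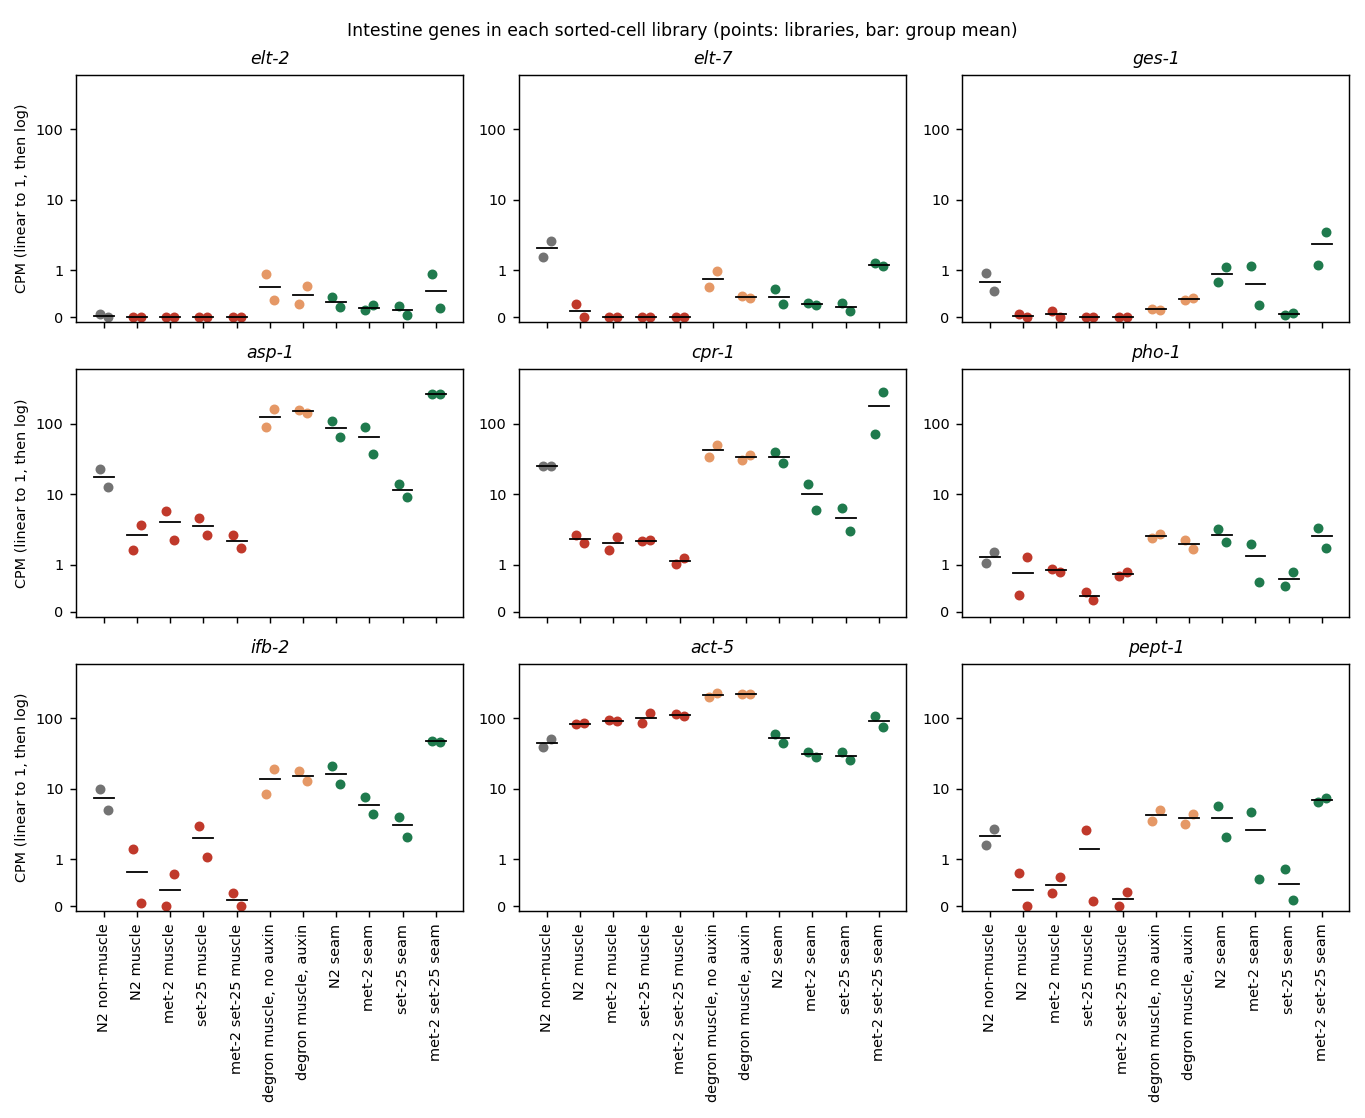
Level of each of the 9 intestine genes in CPM (vertical axis, linear up to 1 and logarithmic above) in the 22 libraries of 11 groups (horizontal axis). Points are libraries and bars are group means of 2 libraries. *asp-1* was at 262 CPM in both double mutant seam libraries against 9.18 and 14.1 CPM in *set-25* seam cells, and *elt-2* had no count in any of the 8 muscle libraries of the genotype table.

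Of the regulators, *elt-2*, the GATA factor that maintains intestinal fate, was close to the limit of detection in seam cells. It was at 0.422 and 0.221 CPM in N2, 0.150 and 0.265 CPM in *met-2*, 0.247 and 0.0476 CPM in *set-25*, and 0.929 and 0.199 CPM in *met-2 set-25*. These values stand for 1 to 23 counts per library. The ranges of all genotypes overlapped, and *elt-2* was removed by the filter on low counts before testing. *elt-7*, a GATA factor that acts beside ELT-2, was at 0.609 and 0.276 CPM in N2, 0.301 and 0.265 CPM in *met-2*, 0.296 and 0.143 CPM in *set-25*, and 1.25 and 1.15 CPM in the double mutant. Both double mutant libraries lay above the 6 other seam cell libraries, and those of the other genotypes overlapped. None of the tests of *elt-7* passed the threshold. It passed the filter on low counts only with the double mutant libraries, so its place among the members tested depends on its level there.

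Among the enzymes, *asp-1*, a cathepsin D-like aspartyl protease, was at 109 and 65.0 CPM in N2, 91.5 and 37.0 CPM in *met-2*, 14.1 and 9.18 CPM in *set-25*, and 262 and 262 CPM in *met-2 set-25*. The *met-2* range enclosed the lower N2 library, both *set-25* libraries lay below all others, and both double mutant libraries lay above all others. *cpr-1*, a cathepsin B-like cysteine protease, was at 39.4 and 27.7 CPM in N2, 14.2 and 5.98 CPM in *met-2*, 6.31 and 2.997 CPM in *set-25*, and 71.6 and 283 CPM in the double mutant. Both double mutant libraries were again the highest, but they differed 3.95-fold from each other. *ges-1*, the gut esterase used as a classical marker of the lineage, was at 0.750 and 1.10 CPM in N2, 1.15 and 0.265 CPM in *met-2*, 0.0493 and 0.0952 CPM in *set-25*, and 1.17 and 3.49 CPM in the double mutant. The 2 *set-25* libraries held 1 and 2 counts of it, against 5 to 70 in the other 6. *pho-1*, an intestinal acid phosphatase, was at 3.23 and 2.10 CPM in N2, 2.004 and 0.635 CPM in *met-2*, 0.543 and 0.856 CPM in *set-25*, and 3.31 and 1.74 CPM in the double mutant. N2 and double mutant overlapped for this gene, alone among the 8 members tested. The exons of *pho-1* overlap those of another gene on the opposite strand, so its counts are uncertain.

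Of the apical cytoskeleton genes, *ifb-2*, an intermediate filament protein of the terminal web, was at 21.04 and 11.7 CPM in N2, 7.56 and 4.39 CPM in *met-2*, 4.05 and 2.05 CPM in *set-25*, and 47.5 and 46.6 CPM in *met-2 set-25*. No genotype overlapped another, with the double mutant highest, then N2, *met-2* and *set-25*. *act-5*, the actin of the microvilli, was at 59.8 and 45.2 CPM in N2, 33.6 and 28.4 CPM in *met-2*, 33.5 and 25.6 CPM in *set-25*, and 109 and 75.4 CPM in the double mutant. Both single mutants lay below N2 and the double mutant above it. This gene shares most of its sequence with *act-1* to *act-4*, and only uniquely aligned reads entered the counts, so its values are uncertain. The 4 paralogues together were at 7108 to 9053 CPM in seam cells and did not follow the order of *act-5*, with 7108 and 7249 CPM in N2 and 7285 and 8608 CPM in the double mutant. *pept-1*, the apical transporter of short peptides, was at 5.72 and 2.10 CPM in N2, 4.66 and 0.582 CPM in *met-2*, 0.789 and 0.143 CPM in *set-25*, and 6.54 and 7.43 CPM in the double mutant. Its replicates differed up to 8.002-fold, in *met-2*, and only the double mutant and *set-25* lay apart from N2.

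The first comparison asked whether loss of MET-2 alone altered these genes in seam cells. None of the 8 members tested in the edgeR quasi-likelihood fit was called at an adjusted p (FDR) under 0.01 and a change over 2-fold, where the background was 2.08% of 12591 genes for higher and 3.11% for lower levels. At an unadjusted p under 0.05 there were 3 members (*cpr-1*, *ifb-2* and *act-5*), and DESeq2 called 1, *ifb-2*, lower. For 4 members both *met-2* libraries lay below both N2 libraries, as for 41.4% of all genes tested. All 8 fitted changes were below 0, with a median of -0.57 on the log2 scale beside -0.03 for all genes tested. The smallest adjusted p was 0.0486, for *ifb-2*, with a fitted log2 change of -1.32 ± 0.376 (SE). The direction of *asp-1*, *elt-7*, *ges-1* and *pept-1* turned when single libraries were left out.

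In the comparison of *set-25* with N2, all 8 fitted changes were below 0 and few were called. Of the 8 members tested, 2 were called lower and none higher, where 10.3% of all genes tested were called lower and 0.342% higher. *asp-1* fell 7.45-fold in mean CPM (fitted log2 change -2.59 ± 0.424, edgeR adjusted p = 0.00260). *ifb-2* fell 5.37-fold (-2.12 ± 0.396, adjusted p = 0.00476). *cpr-1* was 7.20-fold lower in mean CPM but did not pass (adjusted p = 0.0254), nor did *ges-1* (0.0459), *pept-1* (0.0646), *pho-1* (0.0702), *act-5* (0.0819) or *elt-7* (0.501). For *ges-1* the summed counts were 36 in N2 and 3 for *set-25*, a ratio of 12.6 per unit of depth with a 95% counting interval of 3.97 to 63.7. Both *set-25* libraries lay below both N2 libraries for 7 of the 8 members, where this held for 49.7% of all genes tested. The median fitted change of the members was -2.33 on the log2 scale beside -0.05 for all genes. Both calls were lost without N2 replicate 1 or without *set-25* replicate 2. The call of *ifb-2* was also lost when only *set-25* and N2 were fitted.

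In the double mutant, intestine genes were at higher mean levels than in N2, but none of the 8 members was called with edgeR, where 2.16% of genes were called higher and 0.723% lower. Both double mutant libraries lay above both N2 libraries for 7 members, as for 48.4% of all genes tested. The 7 include *elt-7*, which passed the filter on low counts only with the double mutant libraries. *asp-1* was 3.02-fold higher in mean CPM (fitted log2 change 1.35 ± 0.393, adjusted p = 0.0618), *cpr-1* 5.29-fold (2.20 ± 0.645, 0.0639) and *ifb-2* 2.87-fold (1.28 ± 0.357, 0.0538). These and *act-5* had an unadjusted p under 0.05, 4 members in all, and DESeq2 called 2, *asp-1* and *ifb-2*. The 3 comparisons with N2 share the N2 libraries and are not independent of each other.

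Set against *met-2*, the double mutant had 3 members higher and none lower, where 6.14% of genes were called higher and 2.3% lower. *cpr-1* rose 17.6-fold in mean CPM (fitted log2 change 3.80 ± 0.702, adjusted p = 0.00536), *ifb-2* rose 7.87-fold (2.60 ± 0.382, 0.00197) and *act-5* rose 2.97-fold (1.19 ± 0.207, 0.00421). *asp-1* was 4.08-fold higher but missed the threshold (1.66 ± 0.397, 0.0163). For 7 of the 8 members the libraries did not overlap, as for 63% of all genes tested. The 7 include *elt-7*, which passed the filter on low counts only with the double mutant libraries. Each of these 3 calls was lost in some of the fits with 1 library left out, among them the fit without *met-2* replicate 2. In those fits the log2 change ranged from 2.38 to 4.54 for *cpr-1*, 2.27 to 3.03 for *ifb-2* and 0.895 to 1.36 for *act-5*.

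The widest difference in these genes was between the double mutant and *set-25*. Of the 8 members tested 5 were higher and none lower, where 19.5% of genes were called higher and 1.8% lower. *asp-1* rose 22.5-fold in mean CPM (fitted log2 change 3.95 ± 0.444, edgeR adjusted p = 0.000193), *cpr-1* 38.1-fold (4.74 ± 0.748, 0.00104) and *ifb-2* 15.4-fold (3.40 ± 0.404, 0.000250). *act-5* rose 3.11-fold (1.084 ± 0.207, 0.00278). *ges-1* was also called (4.401 ± 1.04, 0.00792), and its summed counts of 99 and 3 give a ratio of 30.4 per unit of depth with a 95% counting interval of 10.1 to 150. *pept-1* was 14.99-fold higher in mean CPM without passing (0.0207), and *elt-7* (0.0529) and *pho-1* (0.100) did not pass. All 8 members had both double mutant libraries above both *set-25* libraries, as had 66.7% of all genes tested. For *elt-7*, which passed the filter on low counts only with the double mutant libraries, this order is not independent of the filter. The count was 3 without *set-25* replicate 2, and also 3 when the fit held those 2 groups only. *asp-1*, *cpr-1* and *ifb-2* stayed called in each of the 13 alternatives, whereas *act-5* was called in 10 of them and *ges-1* in 8. Of the alternatives, an FDR of 0.05 cannot lose a call, and a pseudocount of 1 and the fitted fold reuse the same p.

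The interaction term compares the double mutant with the sum of the single mutant effects on the log scale. It was called above 0 for 4 of the 8 members (adjusted p under 0.01, no fold threshold), where 16.3% of genes were called above 0 and 11.1% below. The fitted log2 terms were 4.25 ± 0.580 for *asp-1* (adjusted p = 0.000557), 6.34 ± 0.992 for *cpr-1* (0.00113), 4.72 ± 0.549 for *ifb-2* (0.000242) and 1.71 ± 0.293 for *act-5* (0.00177). For these genes the single mutants were below N2 in mean CPM and the double mutant above it. The terms of *ges-1* (4.66 ± 1.34, 0.0215), *pept-1* (3.80 ± 1.30, 0.0421), *pho-1* (2.18 ± 0.836, 0.0616) and *elt-7* (2.40 ± 1.02, 0.0863) lay above 0 without passing. When scaled by library totals, the median gene moved by 0.26 on the log2 scale between double mutant and N2. It moved by 0.65 between double mutant and *set-25*, so part of each CPM fold is shared with the median gene. In the fit these shifts were smaller, at 0.03 and 0.21, but not absent.

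**Figure D2:**
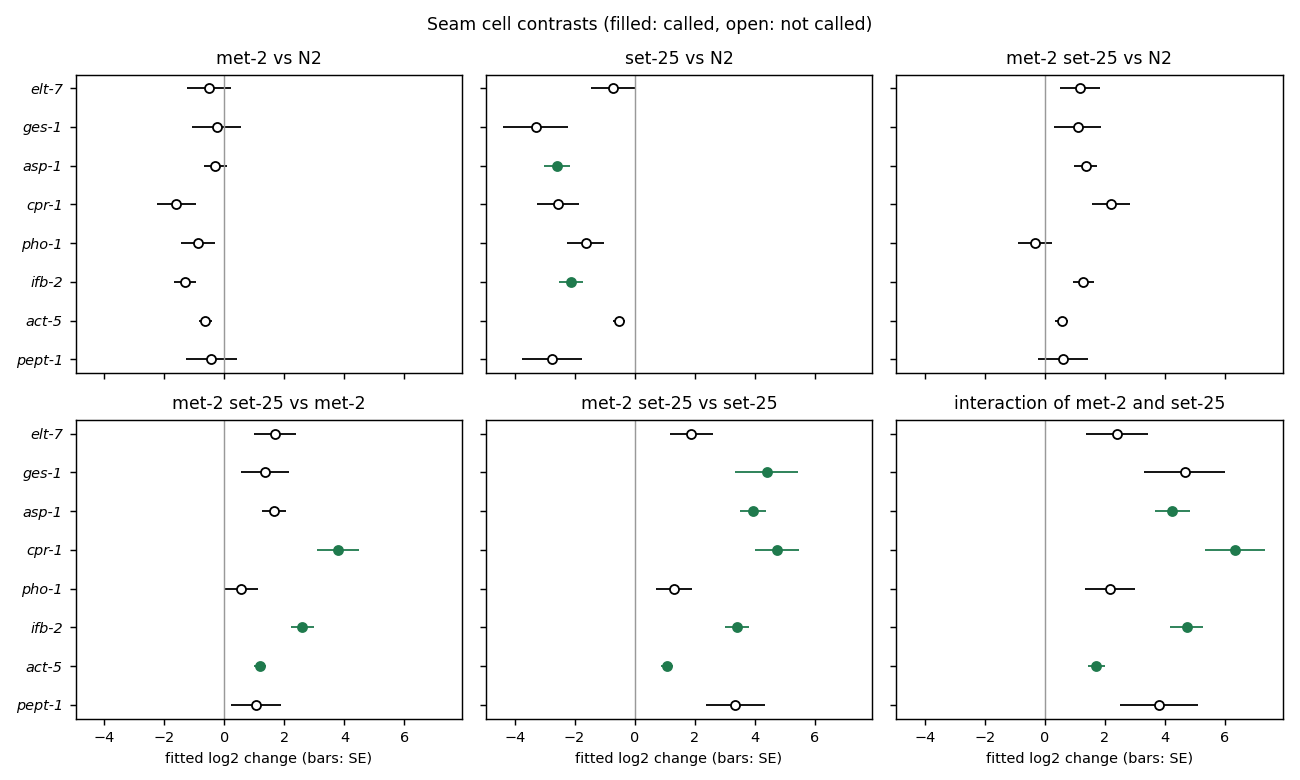
Fitted log2 change of the 8 tested members (vertical axis) in the 5 seam cell comparisons and the interaction term, with bars of 1 SE. Filled points were called and open points were not. In *set-25* against N2 all points lie below 0 and 2 are filled, and in the double mutant against *set-25* all lie above 0 and 5 are filled.

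Sums of other marker lists also differed between the seam cell genotypes. Seam cells are themselves epidermal, so the hypodermal list does not mark a tissue apart from them. The sum of 8 hypodermal genes ran opposite to the intestine genes, with 17059 and 17369 CPM in N2, 25195 and 25477 CPM in *met-2*, 28322 and 32948 CPM in *set-25*, and 10991 and 13458 CPM in the double mutant. All 8 hypodermal markers reached 10 counts in each seam library. The sum of the 9 seam genes was 4629 and 4749 CPM in N2, 3845 and 4058 CPM in *met-2*, 2361 and 3610 CPM in *set-25* and 5648 and 7097 CPM in the double mutant, the same order of means as the intestine genes. Germline genes (12 genes) were at 34.1 and 48.7 CPM in N2, 179 and 192 CPM in *met-2*, 38.7 and 50.3 CPM in *set-25*, and 440 and 476 CPM in the double mutant, with *met-2* above N2 where the intestine genes were not. Pharynx genes (10) were at 62.1 to 129 CPM in the 3 other genotypes and at 127 and 302 CPM in the double mutant. Neuronal genes (13) were at 994 to 1737 CPM and glial genes (7) at 113 to 226. Body wall muscle genes (10) were at 3299 and 3332 CPM in N2 and 4643 and 4524 CPM in *met-2*. They were at 4791 and 4478 CPM in *set-25* and 2829 and 3552 CPM in the double mutant. Of these, *unc-54* was at 4367 and 4118 CPM in *set-25* and 1869 and 2270 CPM in the double mutant. *myo-3* went the other way, at 14.5 and 11.2 CPM in *set-25* and 33.1 and 39.4 CPM in the double mutant. Of the cell type lists, glia alone had a marker at 0 counts in seam libraries. The number of genes with 10 counts was 9778 and 9810 for *set-25* and 12118 and 12898 for the double mutant, with 10804 to 11749 in N2 and *met-2*. The part of these differences in the intestine results was not tested.

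**Figure D3:**
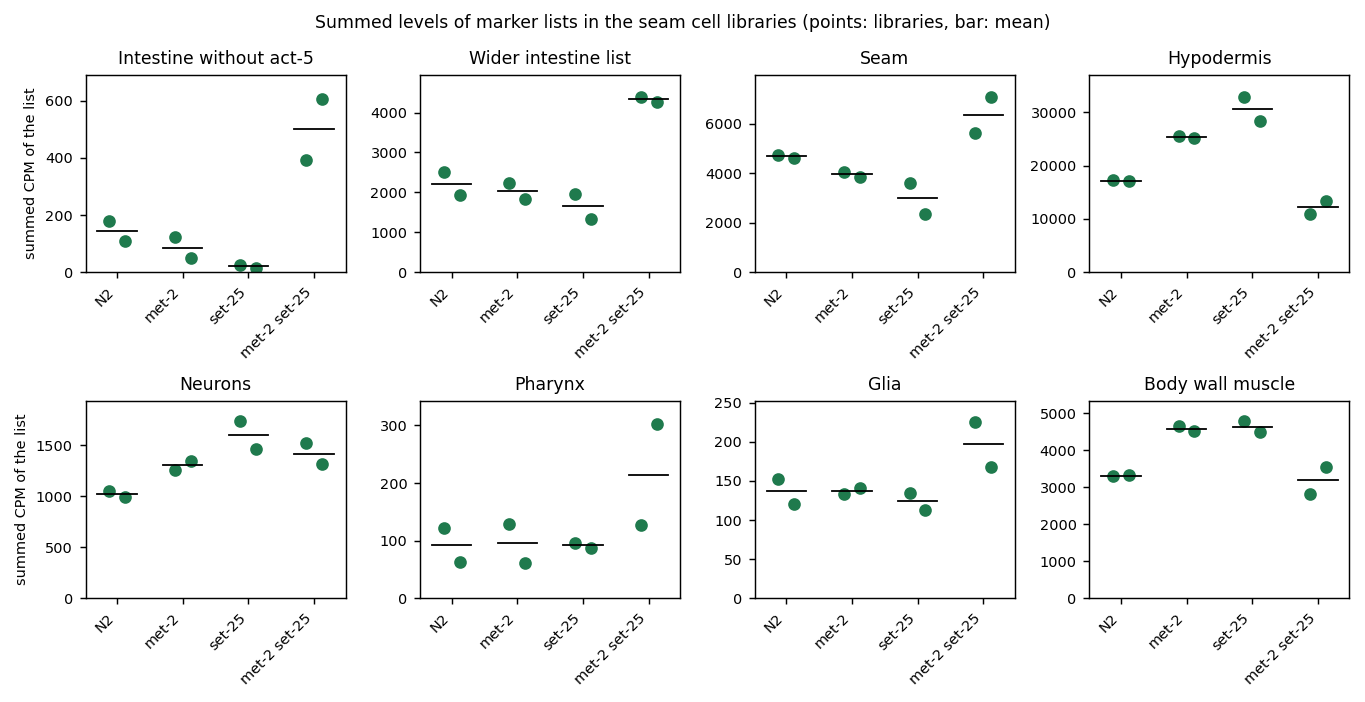
Summed CPM (vertical axes, starting at 0, with a scale for each list) of 8 gene lists in the 8 seam cell libraries by genotype. Points are libraries and bars are means of 2. Intestine genes without *act-5* were at 394 and 605 CPM in the double mutant and at 15.5 and 26.4 CPM in *set-25*, while hypodermal genes were at 10991 and 13458 against 28322 and 32948.

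The members varied together across the 8 seam cell libraries, which share genotype groups, depth and library preparation. Pearson's r with the mean log2(CPM + 1) of the 9 members was 0.99 for *ifb-2*, 0.97 for *asp-1*, 0.97 for *cpr-1*, 0.95 for *pept-1*, 0.93 for *act-5*, 0.91 for *elt-7*, 0.88 for *ges-1*, 0.81 for *pho-1* and 0.60 for *elt-2*, each gene being itself part of that mean. Over all 22 libraries the value for *act-5* was 0.25, the lowest, and that of the other 8 was 0.70 to 0.98. The proportions within the set were not constant. The ratio of *asp-1* to *cpr-1* counts was 2.76 and 2.34 for N2, 6.43 and 6.19 for *met-2*, 2.23 and 3.06 for *set-25*, and 3.66 and 0.924 for the double mutant. The 2 *met-2* libraries stood above the rest and the double mutant replicates lay far apart. In contrast, the ratio of *asp-1* to *ifb-2* was 5.52 and 5.62 for the double mutant, within the range of 3.49 to 12.1 of the other seam libraries. In each seam genotype most of the 9 members were higher in replicate 1 than in replicate 2 (8 members for N2, 8 for *met-2*, 7 for *set-25*, 6 for the double mutant).

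Genes outside the set with the most similar pattern were ranked by the same correlation. Over the 8 seam libraries, *endu-2*, an endoribonuclease gene, came first among 7424 genes of at least 5 CPM on average (r = 0.996). It was at 8.06 and 4.80 CPM in N2, 4.86 and 1.16 CPM in *met-2*, 0.937 and 0.618 CPM in *set-25*, and 16.5 and 21.8 CPM in the double mutant. The next were C18B2.5, ZK686.2, K12H4.7, *umps-1*, *clec-63*, *mfn-1*, C08F11.13, *vang-1* and Y51F10.7, down to r = 0.99. Over the 22 libraries Y39G8B.9 came first among 7801 genes (r = 0.98), at 39.6 and 62.7 CPM in double mutant seam cells and 1.97 and 0.381 CPM in *set-25*, followed by C17F4.7, *dct-18*, *clec-63*, *nspg-14*, *tpan-1*, *lec-9*, T21H3.1, *lipl-5* and *cpr-9*, the last a cathepsin B-like gene. *clec-63*, which encodes a C-type lectin, was in both rankings.

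A wider list of 72 genes known from the intestine, in 8 classes and without the 9 members, gave the same order of genotypes. That list was chosen with earlier results of these data known, so it is not independent support for the order. In seam cells 55 of the 72 were tested. Against N2, 1 was called lower in *met-2* (*fat-6*), beside 3.11% of all genes, 13 lower in *set-25*, beside 10.3%, and none in either direction in the double mutant (21 at an unadjusted p under 0.05 in edgeR). The double mutant had 12 called higher than *met-2* (6.14% of all genes) and 34 called higher than *set-25* (19.5%), with none called lower in either. The medians of the fitted log2 changes were -0.52 for *met-2*, -2.03 for *set-25* and 0.81 for the double mutant against N2, and 3.20 for the double mutant against *set-25*, where all genes tested had medians of -0.03, -0.05, 0.03 and 0.21. The interaction was called for 30 genes above 0 (16.3% of all genes) and 2 below (11.1%).

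By class, the genes called higher in the double mutant than in *set-25*, where 19.5% of all genes were, numbered 9 of 11 proteases tested, 10 of 11 lysozymes and saposins, 6 of 10 transport genes, 5 of 9 brush border and lumen genes, 2 of 3 metal binding genes, 1 of 5 lipid and yolk genes, 1 of 2 regulators and 0 of 4 gut granule genes. The saposin-like gene *spp-2* was at 10.4 and 7.89 CPM in N2, 2.45 and 0.794 CPM in *met-2*, 0.345 and 0.285 CPM in *set-25*, and 14.8 and 49.1 CPM in the double mutant. It fell 29.0-fold in *set-25* against N2 (fitted log2 change -4.55 ± 0.806, adjusted p = 0.00376). The metallothionein gene *mtl-1* was at 9.23 and 8.28 CPM in N2, 1.15 and 2.80 CPM in *met-2*, 0.345 and 0.285 CPM in *set-25*, and 10.2 and 37.6 CPM in the double mutant, with N2 and double mutant above both single mutants. The stearoyl-CoA desaturase gene *fat-6* had closely spaced replicates, at 23.5 and 23.4 CPM in N2, 7.31 and 6.35 CPM in *met-2*, 2.12 and 2.05 CPM in *set-25*, and 37.1 and 33.9 CPM in the double mutant. It was the 1 gene of the list called lower in both single mutants, by 3.43-fold in *met-2* (-1.65 ± 0.159, 0.000449) and 11.2-fold in *set-25* (-3.20 ± 0.176, 6.54e-05).

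Of the 11 proteases tested, all from the families of *asp-1* and *cpr-1*, 8 were fitted below N2 in *met-2*, 11 below N2 in *set-25* and 10 above N2 in the double mutant. The interaction was called above 0 for 8 of them, and *asp-13*, *cpr-6* and *asp-4*, which were fitted above N2 in *met-2* (log2 changes of 1.61, 0.79 and 0.12, not called), were not among those. The aspartyl protease gene *asp-6* was at 33.2 and 22.03 CPM in N2, 18.6 and 5.56 CPM in *met-2*, 2.81 and 2.76 CPM in *set-25*, and 68.4 and 88.8 CPM in the double mutant. *asp-3*, a cathepsin D-like gene, was at 40.9 and 24.6 CPM in N2, 4.19 and 2.71 CPM in *set-25* and 92.1 and 132 CPM in the double mutant. The cathepsin B-like gene *cpr-4* was at 25.2 and 16.2 CPM in N2, 7.06 and 3.92 CPM in *met-2*, 2.91 and 0.666 CPM in *set-25*, and 34.5 and 113 CPM in the double mutant. Like *cpr-1* it was higher in double mutant replicate 2 than in replicate 1, as were *cpr-5* (117 and 48.4 CPM), *spp-2* and *mtl-1*. The 2 genes called below 0 in the interaction, of 8 fitted below 0, were *ttm-1*, a zinc transporter gene (-1.90 ± 0.220, adjusted p = 0.000238), and *erm-1*, which links actin to the apical membrane (-0.86 ± 0.198, 0.00784). *ttm-1* was at 28.9 and 23.7 CPM in N2, 30.7 and 41.3 CPM in *set-25* and 20.5 and 17.9 CPM in the double mutant, an order opposite to that of the digestive enzymes. *erm-1* lay within 259 to 385 CPM in all 8 seam libraries.

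Muscle of the 4 genotypes held little RNA of the intestine genes other than *act-5*. *elt-2* had 0 counts in all 8 libraries, which allows up to 0.183 to 0.248 CPM (3 counts, counting error only), and *elt-7* had 4 counts in N2 replicate 1 and 0 in the others. *ges-1* had 0 to 2 counts. *asp-1* was at 1.61 and 3.62 CPM in N2, 5.86 and 2.24 CPM in *met-2*, 4.55 and 2.62 CPM in *set-25*, and 2.69 and 1.71 CPM in the double mutant, with all genotypes overlapping. *cpr-1* was at 1.03 to 2.65 CPM, *pho-1* at 0.244 to 1.28, *ifb-2* at 0 to 2.98 and *pept-1* at 0 to 2.65. *act-5* was at 82.2 to 118 CPM, where the 4 paralogues *act-1* to *act-4* were at 57197 to 77757 CPM. None of the 5 members tested (*asp-1*, *cpr-1*, *pho-1*, *ifb-2* and *act-5*) was called in any of the 5 genotype comparisons in muscle, where 9167 genes were tested. The shares of all genes called higher and lower were 2.17% and 0.0655% for *met-2*, 2.36% and 0.207% for the double mutant against N2, and 2.13% and 0.153% for the double mutant against *set-25*, with 0% for *set-25* against N2 and for the double mutant against *met-2*. No member reached an unadjusted p under 0.05 with edgeR, and DESeq2 called 0. The smallest adjusted p was 0.797 for *met-2*, 0.984 for *set-25* and 0.359 for the double mutant against N2, and 0.804 and 0.351 for the double mutant against *met-2* and *set-25*. None of 31 tested genes of the wider list was called in these comparisons either.

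The difference of each mutant effect between seam cells and muscle was tested in a joint fit of 16 libraries. No member was called for any of the 3 effects, where the shares of 12887 genes called higher and lower were 0.101% and 0.404% for *met-2*, 0.248% and 1.54% for *set-25*, and 0.101% and 0.396% for the double mutant. For the *set-25* effect, *asp-1* had the smallest adjusted p (0.0287, with a term of -2.998 ± 0.731), and 5 of the 8 members tested had an unadjusted p under 0.05 there. DESeq2 called 1 member lower for this effect. The numbers under 0.05 were 0 for the *met-2* effect and 3 for the double mutant effect, and DESeq2 called 0 in both. Tissue, strain, sort and experiment cannot be told apart in this fit.

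In N2, seam cells and muscle were compared across their separate tables. 2 of 7 members tested were higher in seam cells, *asp-1* (4.08 ± 0.444, adjusted p = 0.000428) and *cpr-1* (2.86 ± 0.307, 0.000399), where 29.3% of the 10948 genes tested were called higher and 14.8% lower. Their mean CPM differed 33.2-fold and 14.3-fold. *ifb-2* was 22.2-fold higher in mean CPM without passing (adjusted p = 0.0124). *act-5* was fitted lower in seam cells (-1.66 ± 0.178, 0.000399), but its log2FC of -0.69 did not reach the fold threshold. Without N2 muscle replicate 1, 4 members were called higher. The median gene was 1.23 higher in seam cells on the log2 scale of library totals and 0.41 in the fit.

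In non-muscle cells of N2 the intestine genes were at low to moderate levels. *asp-1* was at 23.1 and 12.7 CPM, *cpr-1* at 24.98 and 25.1, *ifb-2* at 10.004 and 4.99, *elt-7* at 1.54 and 2.58, *ges-1* at 0.940 and 0.564, *pept-1* at 1.61 and 2.66 and *pho-1* at 1.07 and 1.53, and *elt-2* had 1 and 0 counts. So the defining regulator of the tissue was at or near 0 in these libraries, whereas *elt-7* was higher in them than in each other library. Of 7 members tested, muscle was lower for *cpr-1* alone (-1.91 ± 0.430, adjusted p = 0.00962), where 23.4% of the 12107 genes tested were called lower and 9.17% higher, and that call was lost without any of the 4 libraries. 5 members had both muscle libraries below both non-muscle libraries, as had 78.6% of all genes. *act-5* ran the other way, at 39.5 and 50.5 CPM in non-muscle cells and 82.2 and 86.7 in muscle (2.41 ± 0.208, adjusted p = 0.000196), but with a log2FC of 0.91 it did not reach 2-fold. The median gene was 1.73 lower in muscle on the log2 scale of library totals and 0.57 lower in the fit, and *pho-1* was fitted above 0 in the TMM scaling (0.80) and below 0 with library totals (-0.67).

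In muscle of the degron strain the intestine genes were at other levels than in muscle of the genotype table. *asp-1* was at 90.8 and 161 CPM without auxin and 159 and 143 with it, *cpr-1* at 34.4 and 49.6 against 30.999 and 36.0, and *ifb-2* at 8.46 and 18.9 against 17.98 and 12.96. *act-5* was at 202 and 227 CPM without auxin and 223 and 224 with it, and *elt-2* had 7 to 20 counts in the 4 libraries. The ranges of the 2 treatments overlapped for these genes and for *pept-1*. They did not overlap for *elt-7* and *pho-1*, which were lower with auxin. Nor did they for *ges-1*, which was higher with auxin but had 4 to 9 counts per library and was not tested. With few counts for *elt-2*, *elt-7* and *ges-1*, all 9 members lay above the 8 muscle libraries of the genotype table. Those come from another strain and experiment, and this difference was not tested. The wider intestine list had a lower sum, at 783 to 1234 CPM against 1969 to 3789. Its gene *asp-4*, at 333 to 572 CPM against 1515 to 3348, made up most of the sum in each of those 8 muscle libraries. The order of the sums therefore rests on *asp-4* and does not stand for the other genes of the list. More genes of that list reached 10 counts in degron muscle, 42 to 52 against 16 to 28. Hypodermal markers were also higher in degron muscle, with 170 to 528 CPM in sum against 16.1 to 39.2. So were pharynx markers, with 106 to 143 against 25.9 to 47.6, and neuronal markers, with 230 to 311 against 143 to 196. Not all other lists were higher, and the sums of seam, glial and germline markers overlapped. Seam markers were at 54.9 to 61.7 CPM in degron muscle against 59.7 to 84.5. Glial markers were at 8.25 to 15.05 CPM against 0.231 to 12.987, and germline markers at 91.7 to 490 against 26.7 to 2186. The body wall muscle sum was 103969 to 111714 CPM. In that list *myo-3* was lower, at 1283 to 2085 CPM against 3804 to 4779. *unc-54* overlapped, at 32621 to 41078 CPM against 40478.5 to 58198. The part of these lists in the difference was not tested.

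Auxin itself called none of the 8 members tested (edgeR), where 0.913% of 11393 genes were called higher and 0.816% lower, and DESeq2 called 0. Only *cpr-1* had an unadjusted p under 0.05 (fitted log2 change -0.40 ± 0.183, adjusted p = 0.377). Of 49 tested genes of the wider list, 1 was called, the lysozyme gene *lys-1*, which rose 2.05-fold from 29.0 and 34.6 CPM to 58.9 and 71.4 (0.95 ± 0.172, adjusted p = 0.00457).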

How the data were processed

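RNA of sorted L3 cells was sequenced by the authors from Smart-Seq2 libraries (22 samples). The authors used hisat2 within QuasR for alignment to ce10, as their methods state, and deposited raw read counts per gene over WormBase WS220 exons, for unique alignments in the orientation of the gene. The kit does not usually keep strand, so part of the reads may be missing from such counts. The 3 tables hold 20392 genes each and also a deposited exonic width, used here for RPKM. All count columns were mapped to samples by their labels. The 9 members and the wider list of 72 genes were chosen with earlier results of these data known. Chromosomes were read from the WBcel235 annotation, and no coordinates or sequences are given, since no genome of the build used was at hand.

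Differences in counts were tested in edgeR 4.0.16 under R 4.3.3 by its quasi-likelihood method (TMM, filterByExpr, two-sided, Benjamini-Hochberg adjustment over all genes tested), with the libraries of the 4 genotypes of a tissue fitted together. A gene was called at an adjusted p under 0.01 and a difference of log2(scaled count + 8) above 2-fold, and interaction terms at an adjusted p under 0.01 alone. Each SE was obtained from the fitted change and its F statistic. Mean CPM folds are on library totals. Where counts were at most 3 in a group, the ratio is given with an exact 95% counting interval. Libraries had no molecular identifiers, and intervals and floors cover counting error only, since PCR copies are not separate molecules. With 2 libraries per group no test on single values can pass, and every p comes from the fit across genes.

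Alternatives were DESeq2 1.42.0, library totals in place of TMM, no filter, the likelihood ratio test, an FDR of 0.05, a pseudocount of 1, the fitted fold, fits of the compared groups alone, the replicate number as a block, and each library left out. The scripts were tested on simulated data. From the wider list, up to 4 called genes of the largest change in each direction were named per comparison, and those named for likeness are the 10 with the highest r in each ranking.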

Additional observations from a re-analysis of the deposited data

Results flagged for a closer look

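The effects of the 2 alleles differed with the genetic background in seam cells for 4 members, by the interaction term of the edgeR fit. The log2 term was 4.25 for *asp-1*, 6.34 for *cpr-1*, 4.72 for *ifb-2* and 1.71 for *act-5*. Loss of MET-2 went with lower or similar mean levels of these genes in animals with SET-25 and with higher levels in animals without it. The hypodermal sum ran opposite to them (10991 and 13458 CPM in the double mutant against 28322 and 32948 in *set-25*), and its part was not tested. With 2 libraries in each group, no library could be tested as an outlier within its group.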

How the results depend on the processing

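All comparisons rest on 2 libraries a group, and most members other than *asp-1*, *cpr-1*, *ifb-2* and *act-5* had few counts, which limits their precision. The counts of called members changed as follows, and the cause was not tested. For *met-2* against N2 in seam cells, 1 was lower with DESeq2, with FDR 0.05 and with the likelihood ratio test, and 2 with no filter. For *set-25* against N2, 4 were lower with FDR 0.05 and with the likelihood ratio test and 5 with no filter. For the double mutant against N2, 2 were higher with DESeq2, and 3 with the likelihood ratio test and with no filter. Against *set-25* it had 3 when only the groups compared were fitted. For N2 muscle against non-muscle cells, 1 was higher on the fitted fold scale and 2 lower with library totals. For N2 seam cells against muscle, 4 were higher with FDR 0.05, library totals, the likelihood ratio test or no filter, and 1 lower on the fitted fold scale. For the *set-25* effect between tissues, 1 was lower with DESeq2, FDR 0.05 or the likelihood ratio test and 4 with no filter. For the double mutant effect, 1 was higher with the likelihood ratio test and 3 with no filter.

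With libraries left out in turn, the count ranged from 0 to 2 for *set-25* against N2 (lower), from 0 to 2 for the double mutant against *met-2* and from 3 to 4 against *set-25* (higher), from 0 to 1 (higher) and 0 to 0 (lower) for N2 muscle against non-muscle cells, and from 2 to 4 for N2 seam cells against muscle (higher). Directions turned for members that were not called. In *met-2* against N2, the fitted log2 changes ranged from -1.09 to 0.20 for *asp-1*, from -0.90 to 0.12 for *elt-7*, from -1.66 to 0.43 for *ges-1* and from -2.59 to 0.41 for *pept-1*. They lay above 0 without *met-2* replicate 2 for *asp-1*, *ges-1* and *pept-1*, without N2 replicate 1 for *asp-1* (0.068), *elt-7* and *pept-1*, and without N2 replicate 2 for *ges-1*. *pho-1* ranged from -0.048 (without *met-2* replicate 2) to 1.58 in the double mutant against *met-2*, and from -0.38 (without N2 muscle replicate 2) to 1.45 in N2 muscle against non-muscle cells, where it was at -0.67 with library totals. *act-5* lost its interaction call without *met-2* replicate 2 (adjusted p = 0.0114).

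Over all genes, deviations of samples of the same number were correlated at -0.04 to 0.14 in seam cells and -0.07 to 0.07 in muscle, not above 0.1 in every pair, so the numbers were not taken to pair the samples. Most of the 9 members were nevertheless higher in replicate 1 in each seam genotype (6 to 8 of them). With the replicate number as a block, the double mutant had 4 members higher than *met-2* and 5 higher than *set-25*, and *ges-1* lost its call in the latter (adjusted p = 0.0121, with 5.66e-06 to 0.0462 over its alternatives) while *pept-1* gained one. *asp-1* gained one against *met-2*, and the interaction count stayed at 4. In the degron libraries the correlation was -0.22, and the crossed pairing, added after the data were seen, called 0 members. The calls of *asp-1*, *cpr-1* and *ifb-2* against *set-25* and in the interaction were kept in each of 13 and 14 alternatives. Among these, an FDR of 0.05 cannot lose a call.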

Other observations

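Not all genes of the wider intestine list were low in muscle. The lysozyme gene *lys-1* was at 140 and 131 CPM in N2 muscle, 82.2 and 73.7 in non-muscle cells and 19.8 and 7.51 in N2 seam cells, and was called lower in seam cells than in muscle (fitted log2 change -4.29 ± 0.432, edgeR adjusted p = 0.000304). *glo-4*, needed for gut granules, was at 139 and 118.8 CPM in N2 muscle against 60.5 and 42.0 in non-muscle and 27.4 and 21.8 in seam cells. The aspartyl protease gene *asp-4* was at 3348 and 3056 CPM in muscle and at 1030 and 1170 in non-muscle cells. *fat-5*, a palmitoyl-CoA desaturase gene, was at 7.27 and 4.83 CPM in muscle and at 0.739 and 0.564 in non-muscle cells. All but *lys-1* were called higher in muscle than in non-muscle cells, and all 4 were called lower in N2 seam cells than in muscle. Other genes of the list had the opposite order. *cpr-3* was without a count in N2 muscle (0 in each library) and had 268 and 205 counts in non-muscle cells, and *asp-14* had 0 counts in muscle, 88 and 43 in non-muscle cells and 260 and 166 in N2 seam cells. *eps-8*, a regulator of microvillar actin, was at 69.6 and 57.8 CPM in N2 seam cells and at 1.33 and 0 in muscle.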
